A study of Homo sapiens with 13 samples.

Results

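Protein-coding promoters whose accessibility was lower in M-phase than in G1 were described in the human glioblastoma cell line T98G. Of 12644 ATAC-seq peaks that overlapped the transcription start site (TSS) of a protein-coding transcript, 11973 reached a G1 mean of 20 scaled counts, and 491 of these, or 4.1%, met the rule for membership. The members were chosen by the scaled counts of both phases. The rule asked for a log2 ratio of the M-phase to the G1 mean, each with a pseudocount of 8, of -0.585 or less, and for every M-phase library to lie below every G1 library. These values are therefore given as a description and were not tested. Without the fold threshold, every M-phase library lay below every G1 library at 7.11% of the eligible coding promoter peaks and at 23.3% of all peaks with such a G1 mean. The same rule was met by 18.2% of all 43173 peaks with a G1 mean of at least 20, and by 25.6% of the 24016 such peaks that lay more than 2 kb from any TSS. The members held starts of 509 genes, and 28 of them held starts of more than 1 gene.

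In ATAC-seq the transposase Tn5 cuts DNA and adds adapters to it, and reads pile up at open chromatin. There were 3 libraries per phase. G1 cells had been kept without serum for 72 h. M-phase cells had been starved for 48 h, released for 36 h into medium with nocodazole, which depolymerizes microtubules and arrests cells in mitosis, and collected by shake-off. Neither the release nor the drug can be told apart from the phase. The labels list HiSeq runs alone for G1 but a HiSeq and a NextSeq run for every M-phase replicate, which the deposited columns do not keep apart, so the platform cannot be told apart from the phase either. Nothing in the labels says that the replicates came from separate cultures, so their spread may be technical. In bulk cells, a smaller share of cells with an open promoter and a less open promoter in every cell cannot be told apart.

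During mitosis chromosomes condense and most transcription stops, yet many promoters remain accessible to nucleases and transposases. Promoters differ in their CpG dinucleotides. CpG-island promoters, rich in CpGs, serve most broadly expressed genes and tend to be open in many cell types, whereas CpG-poor promoters are often used in few tissues or as alternative starts of a gene. Many genes have several promoters, and MANE Select names 1 transcript per gene that RefSeq and Ensembl both use as the representative one.

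Values are read counts in peaks of hg19, scaled by the authors to the size of the smallest library. They summed to between 4191845 and 5092426 in the G1 libraries and to between 5475345 and 6000423 in the M-phase libraries. Over all 73121 peaks tested with limma, 13.1% were lower and 14.3% were higher in M-phase at an adjusted p under 0.05. Over the 12411 coding promoter peaks tested, 4.88% were lower and 48.8% were higher. The split depended on the scaling, with 606 lower and 6059 higher coding promoter peaks as scaled by the authors, 1937 and 4180 with equal totals and 2236 and 2792 after a trended loess normalization. Over all peaks it was 9548 and 10439 as scaled by the authors, 12649 and 8868 with TMM scaling, 18113 and 6347 with equal totals and 10190 and 7321 after the trended loess. The median log2 change of coding promoter peaks was 0.45 with the authors' scaling, 0.32 with TMM scaling, 0.12 with equal totals and 0.05 after the trended loess, while the highest value of any member stayed at -0.47 or below in all of these. G1 replicate 3 had the largest total of the G1 libraries and was the highest G1 library at 400 of 491 members (81.5%) and at 68.0% of the 11482 other promoter peaks. Without it the rule selected 351 peaks, of which 323 were among the 491. Glial and mesenchymal markers were checked against the label. VIM, CD44 and OLIG2 had coding promoter peaks with G1 means of 272.1, 154.8 and 85.0, SOX2 had one at only 11.6, and no coding promoter peak was found at the neural marker NES or the astrocyte marker GFAP. PTPRC, CD3E and PECAM1, which mark blood and endothelial cells, had none either, while the epithelial genes EPCAM and KRT8 had peaks at 91.6 and 96.3.

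The sequence just upstream of a start is shown first for the members with the lowest log2 changes, because these were CpG-poor. Each run covers 150 bases of GRCh37 that end at the base before the most upstream annotated start of the gene in the peak whose window held no exon, on the strand of transcription, with every CpG in capitals. It was printed for the first 3 members, in order of their change and with a G1 mean of at least 50, whose window could be shown here. The CD34 window is chr1:208063838-208063987 on the minus strand and holds 2 CpGs, the PLEKHS1 window is chr10:115510871-115511020 on the plus strand and holds 1 (its start lies 420 bases upstream of the MANE Select start used for the CpG ratio), and the CHRNA1 window is chr2:175652664-175652813 on the minus strand and holds 1.
CD34: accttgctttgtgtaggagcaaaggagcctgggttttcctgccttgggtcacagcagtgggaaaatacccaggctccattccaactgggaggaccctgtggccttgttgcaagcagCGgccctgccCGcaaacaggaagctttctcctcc
PLEKHS1: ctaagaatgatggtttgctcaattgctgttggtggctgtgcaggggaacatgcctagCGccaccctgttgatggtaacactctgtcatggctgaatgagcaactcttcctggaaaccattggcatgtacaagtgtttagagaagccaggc
CHRNA1: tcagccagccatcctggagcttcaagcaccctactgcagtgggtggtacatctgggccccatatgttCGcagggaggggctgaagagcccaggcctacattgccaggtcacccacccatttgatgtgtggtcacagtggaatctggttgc

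With the pseudocount of 8, the lowest log2 change was found at CD34, which encodes a sialomucin of blood stem cells and vascular endothelium. Its peak (chr1:208063588-208064355) had scaled counts of 131.2, 157.8 and 208 in G1 and of 29.7, 47.4 and 12.5 in M-phase. The M-phase mean was thus 18.0% of the G1 mean, a log2 change of -2.20, and the start in this peak was not the MANE Select start. OXR1, which protects cells against oxidative damage, followed at chr8:107738135-107738493, with 105.4, 124.2 and 160 in G1 and 31.3, 21.4 and 24.1 in M-phase (log2 change -2.04). PLEKHS1 encodes a protein with a pleckstrin homology domain. Its peak held 58.7, 73.4 and 62 in G1 against 8.7, 15.7 and 7.7 in M-phase, or 16.5% of the G1 mean, a lower share than at CD34. The lowest share over all members was 13.3%, at SELENOP, a plasma selenoprotein with a G1 mean of 38.9 that was named after its values were seen. At CHRNA1, the alpha subunit of the muscle acetylcholine receptor, the G1 libraries gave 89.5, 98.4 and 138 and the M-phase libraries 27.2, 14.4 and 26. At ALPK1, a kinase that senses bacterial sugars, they gave 110.4, 71.9 and 146 against 17.3, 37.5 and 18.3. In each of these peaks the highest M-phase library was well below the lowest G1 library.

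**Figure D1:**
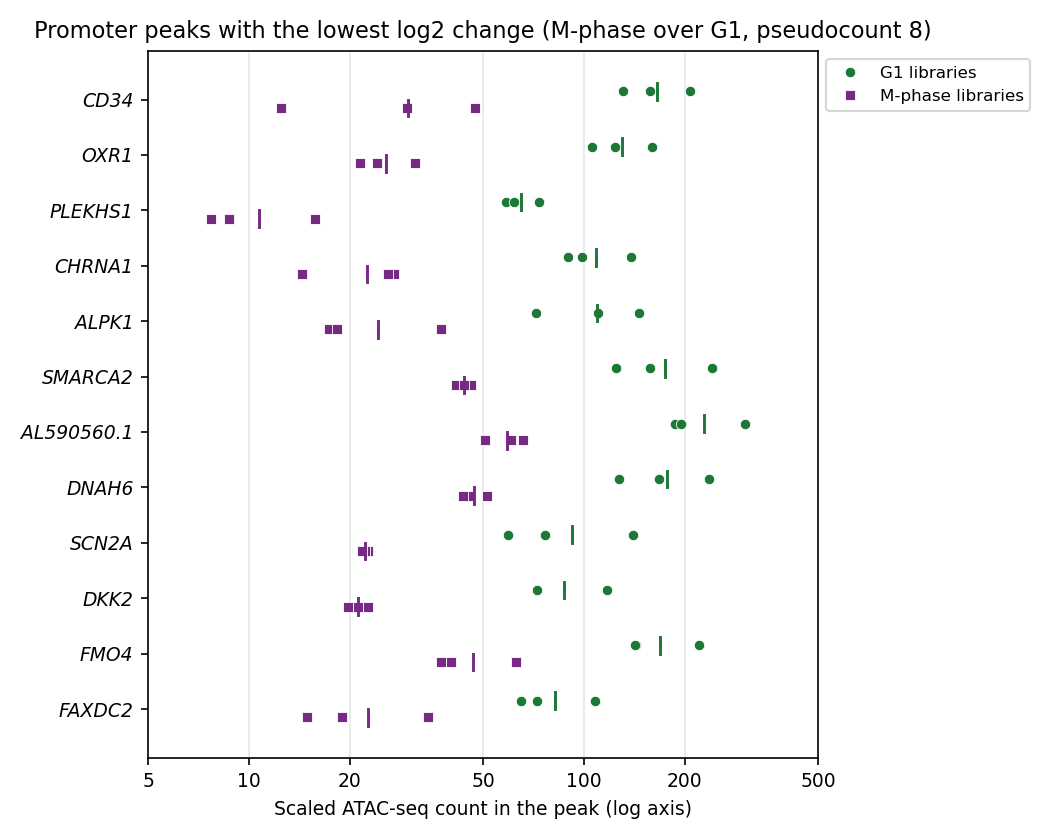
Scaled ATAC-seq counts on a log axis in the 12 member peaks with the lowest log2 change (pseudocount 8) among those with a G1 mean of at least 50; circles are the 3 G1 libraries, squares the 3 M-phase libraries and short vertical lines the means (some points lie on top of each other). In every peak the squares lie to the left of the circles, which the membership rule required, and on this axis the means are farthest apart for PLEKHS1, at 64.7 and 10.7.

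SMARCA2, an ATPase of the SWI/SNF chromatin remodeling complex, had 124.3, 157.8 and 242 in G1 and 46.1, 41.6 and 43.8 in M-phase at an upstream alternative start (chr9:1978999-1980510). Among the next peaks were those of DNAH6, a dynein heavy chain of motile cilia (-1.75), SCN2A, a neuronal sodium channel (-1.73), DKK2, a secreted modulator of Wnt signaling (-1.71), FMO4, a flavin monooxygenase (-1.69), and FAXDC2, a fatty acid hydroxylase family member (-1.55), where values are log2 changes. The peak of AL590560.1, an annotated gene with a clone-based name, lay between those of SMARCA2 and DNAH6 (-1.82). Apart from DNAH6, with a CpG observed over expected ratio of 0.69, the 12 lowest members were CpG-poor, with ratios of 0.079 to 0.26.

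The members with the highest G1 means had smaller changes than the members above, which had been picked for the lowest changes. FZD1, a Wnt receptor, had the highest G1 level, with 888.8, 946.1 and 1350 in G1 and 664.5, 638.2 and 781.4 in M-phase, so that M-phase kept 65.4% of the G1 mean. EBAG9, a Golgi protein linked to estrogen response, had 754.6, 621.9 and 1016 against 460.2, 548.8 and 531.2 (64.4%). OSBPL6, a sterol-binding protein, had 735.7, 657.8 and 904 against 450.7, 469.7 and 504.3 (62.0%). GYPC, a membrane glycoprotein of red cells, kept 52.2% of a G1 mean of 718.5 ± 178.2 (SD, n = 3), and VPS50, an endosomal tethering protein, kept 49.5% of 690.7 ± 207.1 (SD, n = 3). RBM45, an RNA-binding protein, kept 64.9% of 666.3 ± 119.5 (SD, n = 3). None of these strong peaks was emptied in M-phase, since the lowest M-phase mean among them was 341.7.

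Over all 491 members, the M-phase mean was 51.1% of the G1 mean in the median, with a range of 13.3% to 65.7%. In 228 members it was 50% or less, and in 152 the log2 change was -1 or lower. The median log2 change was -0.83, against 0.51 at the other coding promoter peaks. The median member had 91.5, 85.9 and 120 in the G1 libraries and 47.0, 47.8 and 48.1 in the M-phase libraries, whereas the median of the other promoter peaks was 146.1, 133.6 and 170 in G1 and 204.7, 223.3 and 230 in M-phase. The members took 1.5% to 1.81% of all scaled counts in peaks in G1 and 0.667% to 0.679% in M-phase. Of the members, 461 passed the limma threshold, which the rule made likely and from which nothing is read.

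At the edge of the fold threshold, the closest peaks inside were those of FAP, a serine protease of activated fibroblasts, TTC28 and ZNF391, at log2 changes between -0.588 and -0.586. The closest outside were those of FLRT3, GAB1 and F5, at -0.584 to -0.581. FAP had 49.7, 74.2 and 56 in G1 and 36.7, 40 and 35.1 in M-phase, while FLRT3 had 74.6, 71.9 and 134 against 61.4, 49.0 and 68.8. A further 68 coding promoter peaks were past the fold threshold but had overlapping libraries, and 671 had G1 means under 20.

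As a description, the rule was also applied to 2 replicate numbers and the change was read in the third pair of libraries. Leaving out number 1, 2 or 3 selected 662, 701 and 428 peaks, whose median log2 changes in the unused pair were -0.56, -0.47 and -1.01. Of these peaks, 90.6%, 89.6% and 92.1% were below 0 in the unused pair, beside 22.6%, 17.8% and 29.0% of all eligible promoter peaks. The largest of these changes was read with G1 replicate 3, the library in which most members were highest. The sets selected without number 1, 2 or 3 shared 451, 462 and 340 peaks with the 491 members. All libraries had been used to choose the members, so these values are no independent support for them.

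CpG content was measured in the 1000 bp centered on the start, as the number of CpGs observed over that expected from the C and G content. Promoters with a ratio below 0.5 are called CpG-poor, those above 0.75 CpG-rich and those between intermediate. The members split almost evenly, with 167 CpG-poor (34.0%), 158 intermediate (32.2%) and 166 CpG-rich (33.8%). The other promoter peaks were CpG-poor in 7.40%, intermediate in 29.8% and CpG-rich in 62.7% of cases. Conversely, the rule was met by 16.4% of 1017 CpG-poor, 4.41% of 3580 intermediate and 2.25% of 7367 CpG-rich promoter peaks. Without G1 replicate 3 the CpG-poor share was 41.3% of the selected peaks and 7.33% of the rest. The scaling mattered more. After the trended loess normalization, which selected 1339 peaks, the CpG-poor share was 14.0% against 7.70%, and with equal totals it was 24.7% against 6.90%.

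**Figure D2:**
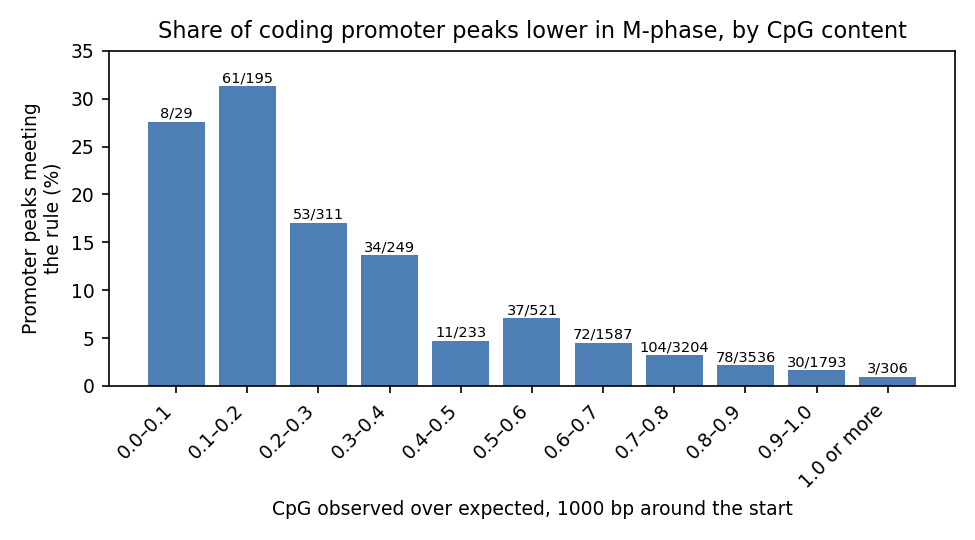
Percent of coding promoter peaks with a G1 mean of at least 20 that met the rule, in bins of the CpG observed over expected ratio; numbers above the bars give members over all promoter peaks of the bin. The share was 31.3% for ratios of 0.1 to 0.2 and 0.98% for ratios of 1.0 or more.

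The lowest bins hold few promoters, with 8 of 29 below a ratio of 0.1. Among the members with the lowest ratios were CHD9NB (0.018), STIM1, a sensor of calcium in the endoplasmic reticulum (0.064), and SYBU (0.074), beside OXR1 and PLEKHS1. CHD9NB had 146.1, 132.0 and 158 in G1 and 44.1, 54.0 and 65.9 in M-phase. At the other end were IKZF2, a lymphoid zinc finger factor (1.11), TTC28 (1.06), ATP10A, a phospholipid flippase (1.01), and FLT4, the receptor for lymphangiogenic growth factors (0.99). IKZF2 had 285.3, 233.6 and 374 in G1 and 170.5, 150.4 and 181.4 in M-phase. The CpG-poor members had the lower ratios of M-phase to G1, with a median log2 change of -1.0 and medians of 60.8 in G1 and 25.6 in M-phase. The CpG-rich members had a median change of -0.77 with medians of 148.8 and 77.6.

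Other properties that the rule did not use are given as medians and shares, without a test. The member peaks were narrower than the other promoter peaks (808 against 1298 bp), had a lower GC content around the start (57.5% against 64.5%) and belonged to longer genes (71.6 against 39.1 kb). A single coding TSS was held by 45.2% of members and by 25.1% of the others, and starts of several coding genes by 5.70% against 13.1%. Across the chromosomes the share of promoter peaks that met the rule ran from 9.53% on chromosome 4, 7.60% on chromosome 2 and 7.33% on chromosome X to 0.71% on chromosome 19, and on chromosome Y it was 0 of 14. The median log2 change of all coding promoter peaks was 0.23, 0.28 and 0.22 on the first 3 and 0.67 on chromosome 19.

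Of the 509 genes with a member peak, 421 had at least 2 annotated coding TSS positions (82.7%) and 88 had 1, beside 84.6% with at least 2 among all 12492 coding genes with a promoter peak at a G1 mean of at least 20. The member peak held the MANE Select start in 376 genes, another promoter peak held it in 64 and no peak held one in 69. The last count takes in any gene without a MANE Select transcript. By peaks, 74.3% of the members and 89.9% of the other promoter peaks held a MANE Select start. By CpG class, the share was 46.7% among CpG-poor members and 49.9% among all CpG-poor promoter peaks. It was 89.9% and 90.3% in the intermediate class and 87.3% and 94.3% in the CpG-rich class. Whether CpG content accounts for the lower share among members was not tested. In 12 genes a pair of promoter peaks met the rule. Among them were CHRNA1, with a weaker peak at the MANE Select start (38.5 in G1 and 11.7 in M-phase), NFIA, RSAD2, PLXNC1 and GRIP1.

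For 104 of the genes, the data held another promoter peak of the same gene that did not meet the rule, 128 peaks in all. Of the 123 that were tested, 5 were lower in M-phase (4.07%), 30 were higher (24.4%) and 88 passed in neither direction, beside 1.22% lower and 50.8% higher of the 11920 coding promoter peaks tested that were not members. Their median log2 change was 0.07. It was 0.19 for the 64 that held the MANE Select start, of which 20 were higher and 3 were lower. The median CpG ratio was 0.82 at these 64 and 0.25 at the member peaks paired with them. The counts depended on the scaling. TMM scaling gave 25 lower and 25 higher peaks, equal totals 40 and 20, and the trended loess 44 and 8, with medians of -0.05, -0.25 and -0.26. Without G1 replicate 3 there were 1 lower and 37 higher peaks.

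**Figure D3:**
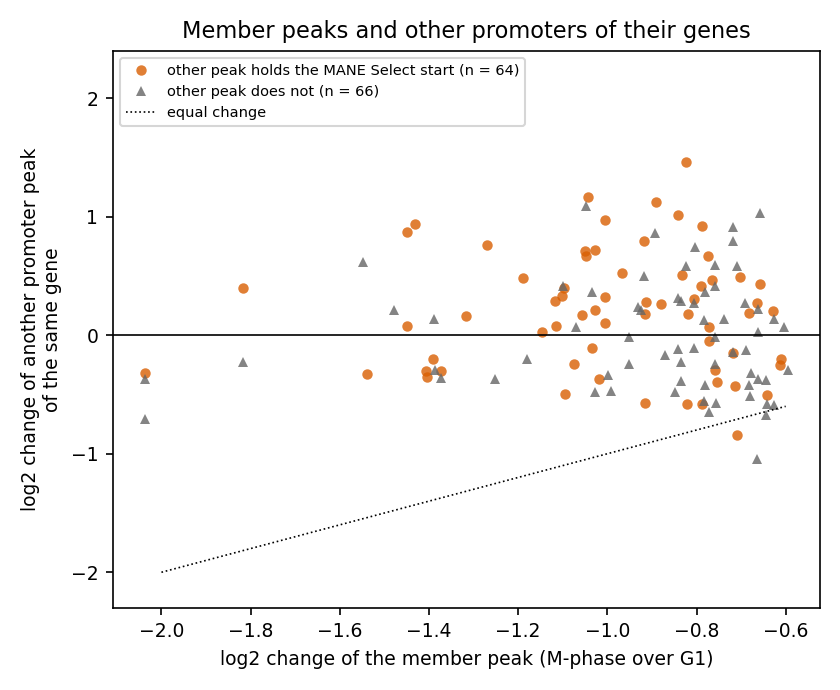
Log2 change (M-phase over G1, pseudocount 8) of each member peak against that of another promoter peak of the same gene, for 130 pairs; circles mark 64 pairs in which the other peak holds the MANE Select start and triangles the remaining 66. The x values are at or below the threshold by construction, and in 72 pairs the other peak lies above 0.

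The upstream sequences of 3 such genes show the difference in CpGs between a member peak and the peak that holds the MANE Select start. They were printed for the pairs with the largest difference in change whose 150-base windows could be shown here and were free of exons. CpGs are in capitals and starts were chosen as above. The pair with the widest difference, that of ST3GAL1, was not among those shown. The start shown in the MANE Select peak lies 161 bases upstream of the MANE Select start at SMARCA2 and 3 at CCSER2, and at TEF it is that start. At SMARCA2 the member window (chr9:1980140-1980289, plus strand) holds 5 CpGs and the window in the MANE Select peak (chr9:2015036-2015185) holds 17. At CCSER2 the windows are chr10:86184545-86184694 and chr10:86088192-86088341 on the plus strand, with 1 and 22 CpGs. At TEF they are chr22:41763187-41763336 and chr22:41777796-41777945 on the plus strand, with 7 and 11 CpGs.
SMARCA2 member peak: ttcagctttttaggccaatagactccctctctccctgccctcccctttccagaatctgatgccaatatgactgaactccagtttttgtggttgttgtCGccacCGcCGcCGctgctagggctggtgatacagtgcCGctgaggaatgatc
SMARCA2 MANE Select peak: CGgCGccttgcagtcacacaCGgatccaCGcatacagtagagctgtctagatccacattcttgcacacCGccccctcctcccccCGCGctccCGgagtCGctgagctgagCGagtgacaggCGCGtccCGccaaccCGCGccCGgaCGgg
CCSER2 member peak: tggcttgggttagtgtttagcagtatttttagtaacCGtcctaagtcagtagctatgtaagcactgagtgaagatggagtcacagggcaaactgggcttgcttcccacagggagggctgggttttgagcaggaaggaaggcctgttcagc
CCSER2 MANE Select peak: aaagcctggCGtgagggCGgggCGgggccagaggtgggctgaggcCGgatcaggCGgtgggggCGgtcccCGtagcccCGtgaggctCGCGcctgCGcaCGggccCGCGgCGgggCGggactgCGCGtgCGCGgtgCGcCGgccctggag
TEF member peak: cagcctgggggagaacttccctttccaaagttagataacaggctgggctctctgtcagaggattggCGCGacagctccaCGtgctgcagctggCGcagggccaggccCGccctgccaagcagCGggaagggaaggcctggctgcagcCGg
TEF MANE Select peak: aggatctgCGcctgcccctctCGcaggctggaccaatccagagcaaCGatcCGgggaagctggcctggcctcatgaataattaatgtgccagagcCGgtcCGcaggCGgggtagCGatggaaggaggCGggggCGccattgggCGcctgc

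The pairs here and in the next paragraph were picked for large differences in these same libraries. The p-values of their other peaks are therefore no independent support. Of the coding promoter peaks tested that were not members, 50.8% were higher, and the median log2 change of the eligible ones was 0.51. At SMARCA2, the MANE Select peak (chr9:2014736-2017974) had 570.7, 512.5 and 790 in G1 and 744.8, 892.9 and 837.3 in M-phase. It was higher by 0.42 ± 0.16 (log2, SE) at an adjusted p of 0.0346 (limma), whereas the member peak 35.7 kb upstream was at 25.1% of its G1 mean. This call was lost without G1 replicate 1 (0.37 on the log2 scale), G1 replicate 2 (0.29), M-phase replicate 2 (0.36) or M-phase replicate 3 (0.41), and with TMM scaling and with equal totals, and after the trended loess the change of the MANE Select peak was -0.61. CCSER2, a microtubule-associated protein, had 17.9, 20.3 and 53 in G1 at the member start and 15.7, 15.2 and 7.2 in M-phase. Its MANE Select peak went from 186.9, 161.7 and 259 to 430.5, 481.3 and 440.8, higher by 1.15 ± 0.18 (log2, SE) at an adjusted p of 1.56e-07 (limma). TEF, a PAR bZIP factor of circadian output, had 100.4, 66.4 and 72 at the member start in G1 and 40.4, 19.0 and 47.6 in M-phase. Its MANE Select peak had 394.7, 326.6 and 401 against 695.8, 783.3 and 741.5 (limma, adjusted p = 6.24e-07).

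The widest difference between promoters of a gene was at ST3GAL1, a sialyltransferase of mucin-type glycans. The member peak (chr8:134511581-134511942) had 44.7, 36.7 and 51 in G1 and 12.4, 11.5 and 10.1 in M-phase, and the MANE Select peak 70.3 kb away had 522.9, 543.8 and 755 against 1103.2, 1249.3 and 1154.4. At IFRD1, a transcriptional coregulator of differentiation, the member peak had 82.5, 85.9 and 112 against 23.9, 34.2 and 29.4, while the MANE Select peak rose by 0.89 ± 0.15 (log2, SE) at an adjusted p of 1.70e-06 (limma). MKLN1, a subunit of the CTLH ubiquitin ligase, NPLOC4, a cofactor of the VCP segregase, and GNAS, the stimulatory G protein alpha subunit, had log2 changes of -0.82, -1.04 and -1.27 at the member peaks. Their MANE Select peaks rose by 1.45 ± 0.18, 1.17 ± 0.20 and 0.76 ± 0.15 (log2, SE), with adjusted p-values of 3.14e-10, 1.63e-06 and 3.16e-05 (limma). FAXDC2 was the reverse case, with the MANE Select start in the member peak and another start 6.95 kb away that rose by 0.64 ± 0.16 (log2, SE) at an adjusted p of 0.000766 (limma). After the trended loess, the values at the other peaks of ST3GAL1, IFRD1, SMARCA2, FAXDC2 and GNAS turned negative, while those of MKLN1, NPLOC4 and CCSER2 kept their sign.

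The 5 other promoter peaks that passed the test as lower were those of GAB1, RMDN1, PATJ, RUFY3 and VOPP1, which were named for their call. GAB1, an adaptor of growth factor receptors, had 422.5, 412.5 and 533 in G1 and 294.1, 305.3 and 306.0 in M-phase at the CpG-rich MANE Select peak, which fell by 0.57 ± 0.17 (log2, SE) at an adjusted p of 0.00567 (limma). Its member peak lay 45.9 kb away in a CpG-poor stretch, with 33.8, 25 and 33 against 8.7, 13.2 and 21.2. At PATJ, a polarity scaffold, both peaks were also lower, and the MANE Select peak fell by 0.50 ± 0.18 (log2, SE; limma, adjusted p = 0.0306). RUFY3 had a further CpG-rich peak that went the other way, higher by 0.61 ± 0.17 (log2, SE; limma, adjusted p = 0.00373).

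Functions of the genes were described with 16 general lists and with 8 lists written after the members had been seen. A gene was counted if any of its promoter peaks was a member, values for named genes are those of the member peak, and each count is read beside the 4.08% of 12479 coding genes that had a member peak. The lists do not hold every gene of a family, so a member can belong to a family below and not be counted. None of 79 cytosolic ribosomal protein genes, 30 mitosis genes, 29 immediate-early and serum response genes, 33 genes of the TGF-beta and BMP pathway and 27 target genes of TEAD and YAP had one. Among ZNF genes it was 5 of 438. The median log2 change at the strongest promoter of each gene was 0.78 for ribosomal protein genes, 0.62 for mitosis genes, 0.88 for immediate-early genes and 0.48 for ZNF genes, beside 0.53 over all coding genes. Solute carriers (8 of 194), extracellular matrix genes (3 of 69), circadian clock genes (1 of 19) and sterol genes (1 of 26) were near the share of all genes. Small counts moved when single libraries were left out. Without G1 replicate 3 there were 3 ZNF genes and without G1 replicate 2 there were 10, along with 2 mitosis genes. Extracellular matrix genes numbered 5 without G1 replicate 1 or M-phase replicate 3, and TGF-beta and BMP genes 2 without the latter. After the trended loess, which selected more peaks, 36 ZNF genes, 7 sterol genes, 5 mitosis genes and 2 ribosomal protein genes met the rule.

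**Figure D4:**
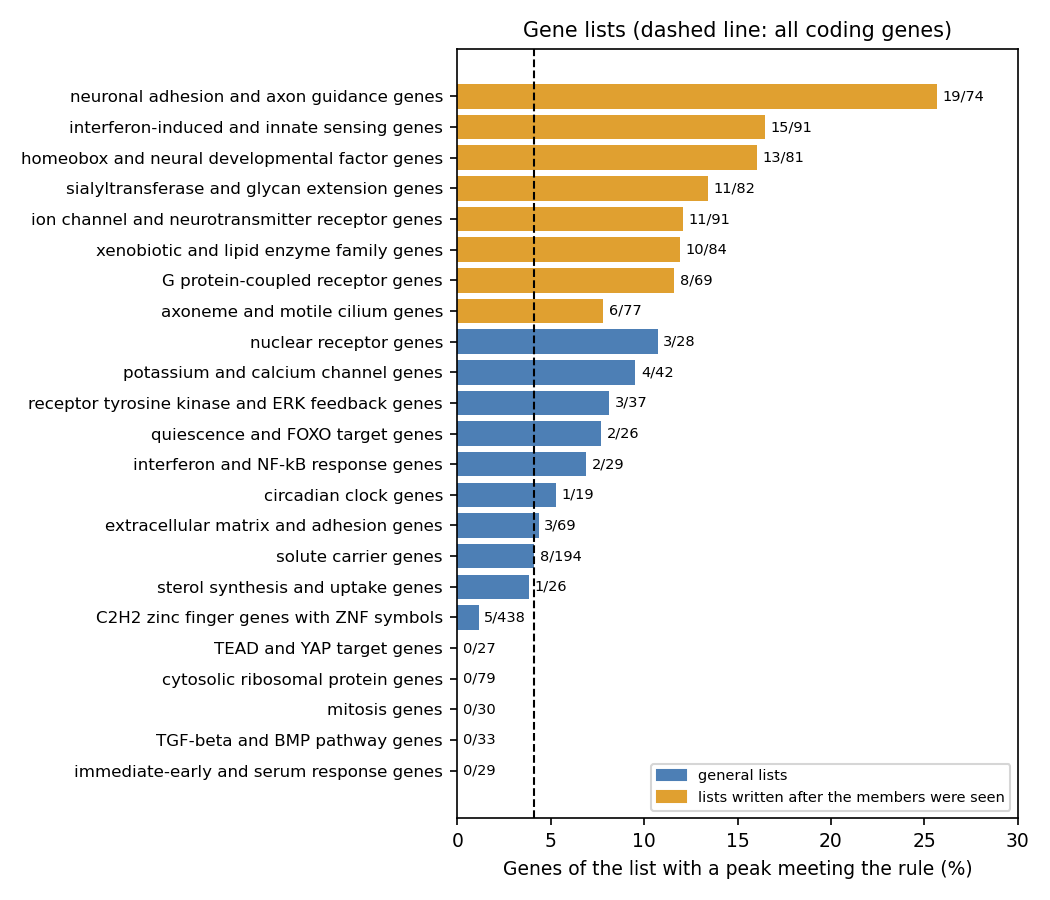
Percent of the genes of a list, for the lists shown, that had a promoter peak meeting the rule, with counts beside the bars; blue bars are general lists, yellow bars lists written after the members had been seen, and the dashed line is the 4.08% of all coding genes. The yellow bars are no independent support, since their families were picked with the members in view.

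In the list of quiescence and FOXO target genes, 2 of 26 had a member peak. PDK4, a kinase that restrains glucose oxidation in starved cells, had 161.1, 172.7 and 195 in G1 and 105.5, 99.3 and 86.1 in M-phase, at 55.0% of the G1 mean. SESN3, a sestrin that restrains mTORC1, had 248.5, 276.6 and 355 against 160.2, 206.4 and 187.2 (62.9%). The median of the list was 0.79, above that of all genes, and 1 gene of the list met the rule without G1 replicate 3 or without M-phase replicate 1. The list of nuclear receptors, which does not hold every gene of the family, had 3 of 28. NR3C2, the mineralocorticoid receptor, had 310.2, 240.6 and 403 against 162.3, 166.1 and 142.9. The member peaks of NR1H3, the oxysterol receptor LXR alpha, and THRA, a thyroid hormone receptor, were at 51.0% and 55.7% of their G1 means. The other promoter peak of NR1H3 had means of 75.2 and 66.1, and that of THRA, at the MANE Select start, had 116.2 and 158.1, neither of them called.

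Signaling receptors gave small counts. EPHB1 and EPHB6, ephrin receptors, and MERTK, a receptor for apoptotic cells, were the 3 of 37 genes in the list of receptor tyrosine kinase and feedback genes. FLT4, a further receptor tyrosine kinase among the members, was not in that list. EPHB6 had 201.8, 272.7 and 310 in G1 and 154.1, 122.4 and 126.1 in M-phase. Among solute carriers, SLC7A8, an amino acid exchanger, was lowest, at 18.6% of a G1 mean of 35.2. The other members were SLC14A1, SLC25A48, SLC39A8, SLC47A2, SLC8A1, SLCO5A1 and SLC27A6, the last through a peak shared with FBN2. FBN2, a microfibril protein, EFEMP1, a fibulin, and ITGA8, an integrin subunit, were the members from the extracellular matrix list, at 63.9%, 52.5% and 48.9%. MRPL50 and ZNF189 also shared a peak, at 49.5% of the G1 mean, and ZNF474, ZNF514, ZNF391 and ZNF726 made up the rest of the ZNF members.

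Interferon-induced and innate sensing genes, a list written after the members had been seen, had member peaks in 15 of 91 genes (16.5%), while in the shorter general list of interferon and NF-kB response genes it was OAS1 and OAS2 alone, 2 of 29. The products of these genes sense or restrict viruses. IFI16, a DNA sensor, had 33.8, 63.3 and 77 in G1 and 18.9, 17.7 and 15.9 in M-phase at an alternative start, while its other promoter peaks, not called, had log2 changes of -0.30 at the MANE Select start and -0.36. NLRP3, the scaffold of an inflammasome, had 128.2, 139.8 and 159 against 50.7, 58.1 and 74.1. OAS1, an oligoadenylate synthetase, had 30.8, 32.8 and 30 against 5.8, 13.2 and 9.6, so its G1 libraries hardly varied. The neighbors SAMD9 and SAMD9L on chromosome 7, both restriction factors of poxviruses, were at 50.3% and 60.5%. TRIM34, TRIM5 and TRIM21 on chromosome 11 and TRIM38 on chromosome 6, ubiquitin ligases of innate immunity, were at 36.9%, 51.9%, 54.7% and 50.2%. Without G1 replicate 3, 11 of the 91 genes had a member peak. The median change at the strongest promoter over the list was 0.08 and the median CpG ratio 0.44, against 0.53 and 0.80 over all genes. Counted by peaks rather than genes, the rule was met by 16.4% of all CpG-poor, 4.41% of intermediate and 2.25% of CpG-rich promoter peaks. The list is a mix of these classes, since IFIH1 was intermediate and CMPK2 CpG-rich. Whether CpG content accounts for the share of the list was not tested.

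**Figure D5:**
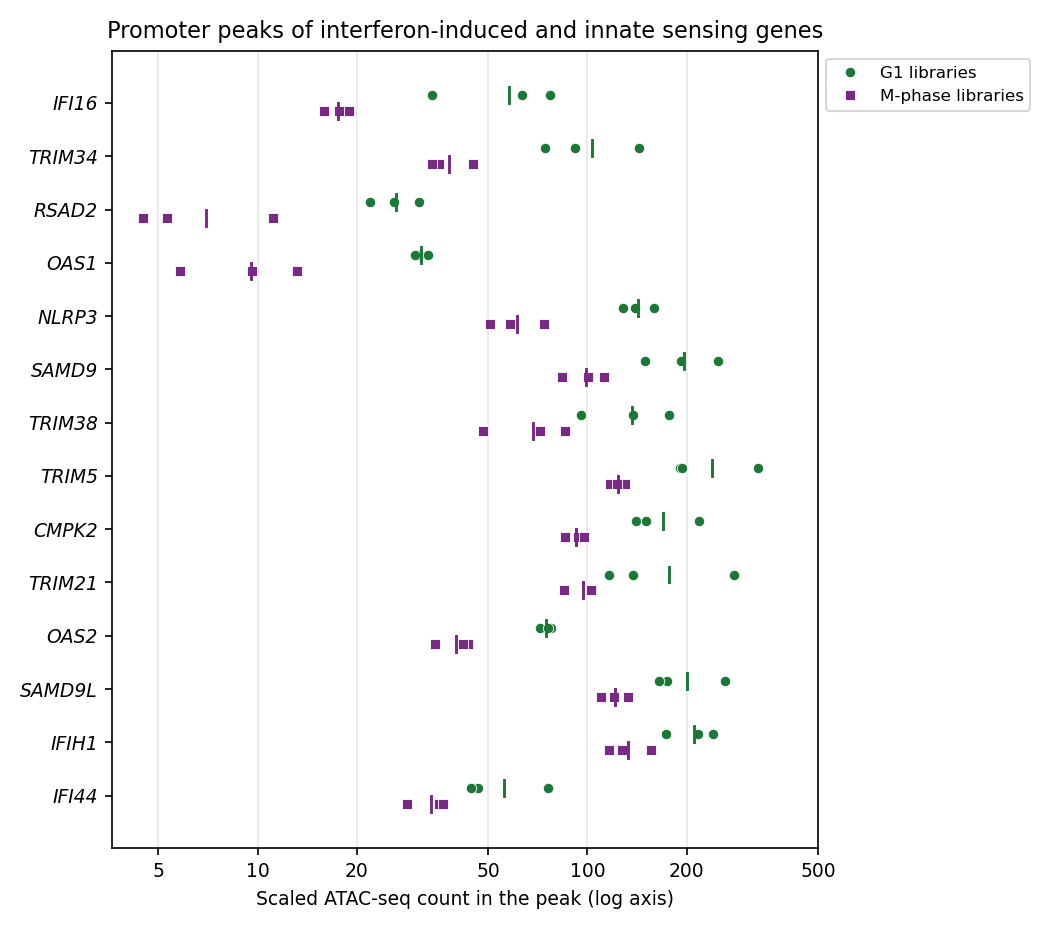
Scaled ATAC-seq counts on a log axis in member peaks of interferon-induced and innate sensing genes, sorted by log2 change; circles are G1 libraries, squares M-phase libraries and short vertical lines the means. G1 means run from 26.2 at RSAD2 to 238.0 at TRIM5, and M-phase means from 7.0 to 133.2.

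The consensus of interferon-stimulated response elements (ISRE), GAAA followed after any 2 bases by another GAAA, was searched on both strands from 250 bases before to 50 after the start. It was present in 8 of the 15 interferon members, namely RSAD2, IFI44, IFIH1, SAMD9, TRIM21, TRIM34, TRIM5 and OAS2. The consensus was not counted in genes of the list without a member peak, so this share is not read as a trait of the members. Over all members the consensus was present in 5.30%, against 2.67% of the other promoters and 2.77% of all promoters, but within the CpG-poor class the shares were 7.78% and 8.0%. Windows of 30 bases around the match are shown for the genes with a window outside annotated exons, with the matched 10 bases in capitals as read on the strand of transcription. They are chr11:5646131-5646160 (plus strand) for TRIM34, chr7:92747409-92747438 (minus strand) for SAMD9 and chr1:79115446-79115475 (plus strand) for IFI44, where the match begins 90, 136 and 60 bases before the start. TRIM34 and IFI44 hold the consensus as its reverse complement.
TRIM34: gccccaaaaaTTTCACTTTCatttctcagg
SAMD9: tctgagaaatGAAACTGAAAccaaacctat
IFI44: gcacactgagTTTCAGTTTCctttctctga

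Genes of neuronal adhesion and axon guidance had the highest share among the lists written after the members had been seen, 19 of 74 (25.7%), and 16 of 74 without G1 replicate 3. Unlike those of the interferon genes, their promoters were CpG-rich in the median, with a ratio of 0.77 over the list. SLITRK5, a synaptic adhesion protein, had 120.3, 160.9 and 244 in G1 and 92.7, 72.1 and 68.3 in M-phase. CNTNAP2, a neurexin family member, had 165, 121.1 and 149 against 78.7, 69.2 and 68.8, and a weaker promoter peak with means of 16.5 and 20.8, not called. PLXND1, a semaphorin receptor, had 153.1, 175.8 and 163 against 74.2, 98.9 and 77.0 at an alternative start, and its MANE Select peak had a log2 change of 0.28, not called. Lower levels were found at LRRTM3 (28.6 in G1 and 5.83 in M-phase), PCDH17 (48.0 and 14.7) and NLGN1 (57.8 and 26.1). The protocadherins PCDH7 and PCDH10, the contactin CNTN5, the guidance receptor ROBO2 and the semaphorins SEMA3D and SEMA6A were further members, at 48.7% to 58.8% of G1.

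Ion channel and neurotransmitter receptor genes, also a list written after the members had been seen, had member peaks in 11 of 91 genes (12.1%, beside 4.08% of all coding genes). Besides CHRNA1 and SCN2A, they included GRIN2A, an NMDA receptor subunit, with 116.3, 133.6 and 139 in G1 and 63.9, 62.6 and 42.3 in M-phase, and a weaker promoter peak with means of 29.0 and 41.5, not called. SCN9A, a sodium channel of pain neurons, was at 51.9%, and the serotonin receptor HTR5A at 31.5%. The general list of potassium and calcium channels held 4 of 42 (CACNB4, KCNA2, KCND3 and KCNK4), 9 and 13 of 42 with TMM scaling and with equal totals, and 7 of 42 without G1 replicate 1 or M-phase replicate 2. CACNB4, a calcium channel subunit, was lowest of these, at 34.0% of its G1 mean. A list of G protein-coupled receptors, also written after the members had been seen, had 8 of 69 (11.6%), and 5 without G1 replicate 3. It leaves out some receptors of this family that had member peaks. Within the list, FZD1 led in level and was followed by GPR37, with 236.6, 232 and 354 against 112.1, 93.9 and 129.9.

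Developmental transcription factors, in a list of homeobox and neural factor genes written after the members had been seen, had member peaks in 13 of 81 genes. This was 16%, beside 4.08% of all coding genes, and it was 9 genes without G1 replicate 3. ZIC1, a zinc finger factor of the neural plate, had the highest level, with 403.6, 355.5 and 556 in G1 and 220.4, 238.6 and 310.4 in M-phase at an alternative start, and its MANE Select peak had means of 138.6 and 103.5, not called. OTX1, a forebrain homeobox factor, had 277.4, 240.6 and 324 against 165.6, 127.7 and 141.0. SIX2 and MNX1, which act in kidney and motor neuron development, were at 47.5% and 47.2% of G1. NFIA, a glial fate factor, had a pair of member peaks, at 48.4% and 53.4%. NEUROG2 and NEUROD4, proneural factors, were weakly accessible, with G1 means of 64.6 and 24.5.

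The lists of this paragraph were also written after the members had been seen, and their counts are read beside the 4.08% of all coding genes. Of 77 genes of the axoneme and motile cilium, 6 had member peaks, and 10 did without G1 replicate 1. SPAG16, a central-pair protein, had 447.4, 375 and 626 in G1 and 201, 213 and 293 in M-phase, the strongest of the group. RSPH4A, of the radial spoke head, had 149.1, 126.6 and 248 against 62.6, 72.5 and 83.2. DNAH7, CFAP53 and CFAP73 were at 54.8%, 45% and 29.7%. Enzymes of glycan extension had 11 of 82. CHSY3, a chondroitin synthase, had 376.8, 370.3 and 613 against 173.8, 196.1 and 200.7, and B3GALT1, a galactosyltransferase, had 339, 273.4 and 439 against 148.3, 163.2 and 135.7. Enzymes of xenobiotic and lipid metabolism had 10 of 84, and 6 without G1 replicate 3. HSD17B4, of peroxisomal beta-oxidation, had 224.7, 251.6 and 336 against 115.8, 119.9 and 131.4, and PON2, a lactonase, kept 62.2% of a G1 mean of 386.5.

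Short consensus motifs, none of which contains another, were counted in the same window of 250 bases before to 50 after the start, on both strands. The AP-1 site TGANTCA was present in 10.4% of members, 4.69% of other promoters and 4.92% of all, but within the CpG-poor class in 24.6% of members and 24.1% of the others. The GC box GGGCGG was present in 53.6% of members, 76.7% of others and 75.8% of all, and in 76.5% and 83.7% of members and others within the CpG-rich class. The ETS core CCGGAA was present in 16.5% of members, 29.3% of others and 28.8% of all, and in the intermediate class in 19.0% and 34.3%. Among CpG-poor promoters, the TEAD site CATTCCA was present in 10.2% of members and 5.18% of others (6.0% of all CpG-poor promoters) and the forkhead site TGTTTAC in 5.99% and 2.94% (3.44%), from 17 and 10 members. The other classes did not share this. The TEAD site was present in 1.27% and 2.31% of intermediate and in 1.20% and 1.43% of CpG-rich members and others. For the forkhead site it was 1.90% and 1.75%, and 0% and 1.87%. Over all classes the TEAD site was present in 4.28% and 1.97% and the forkhead site in 2.65% and 1.92%. These shares are descriptions of short strings, and a match is not a bound site.

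Peaks without a TSS that lay within 50 kb of a member were compared with those near the other coding promoter peaks. Near members, 1238 such peaks were tested, of which 20.3% were lower in M-phase and 3.15% were higher (limma, adjusted p under 0.05). Near the other promoters it was 12.7% and 9.67% of 18582, beside 13.1% and 14.3% of all peaks tested. Near CpG-poor members 24.4% were lower and near CpG-rich members 18.3%, against 12.4% and 12.3% near other promoters of the same classes. Peaks near a promoter share its libraries with it. Leaving out G1 replicate 3 gave 14.5% near members and 9.95% near other promoters, the trended loess gave 17.7% and 11.5%, equal totals gave 33.1% and 24.5%, and no filter on low values gave 11.8% and 7.30%.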

How the data were processed

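As the study's methods and the labels give it, adapters were removed with cutadapt, reads were mapped to hg19 with Bowtie through QuasR, mitochondrial reads were removed with SAMtools and broad peaks were called with MACS2 on merged replicates. Tool versions are not given in the sources used here, nor is how the runs of an M-phase replicate were joined. The deposited signal values are read counts per peak, scaled by the authors to the size of the smallest library and rounded to 0.1. The table also holds the authors' log2 change and its SD, which were not used. Columns of per-sample values not used numbered 0. Chromatin fraction and input libraries were not analysed here.

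Starts were the 5′ ends of protein-coding transcripts of GENCODE release 44 in its lift to GRCh37 (hg19 coordinates), and sequences came from GRCh37. The start for CpG content was the MANE Select start, else the Ensembl canonical start, else the one nearest the peak center. Changes are log2((M-phase mean + 8)/(G1 mean + 8)). All 6 libraries entered a limma fit (version 3.58.1, R 4.3.3, trend on the mean) of log2(scaled count + 8) with no covariates. It took the 73121 of 129347 peaks whose sum reached 15 and which, in 3 or more libraries, reached what would be 10 in a median-sized library. P-values are two-sided and Benjamini-Hochberg adjusted over all peaks tested. Folds on this scale understate the change of low peaks. The fit was tested on simulated data. A count model had been planned for the case that whole reads could be recovered from the scaled values. They could not within rounding, so none was used.

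Named peaks were the 12 lowest changes with a G1 mean of at least 50, the 6 highest G1 means, the 6 lowest and 4 highest CpG ratios, the members of 16 general gene lists, the 3 closest on either side of the fold threshold, and up to 8 genes with the largest difference between promoters. Members and lists were chosen with earlier results of these data known, and 8 lists were written after the members were seen. Some genes and 1 list that these rules name are not reported here. Other genes are named from those lists and were chosen after their values were seen. Alternatives were a pseudocount of 1, TMM scaling (written anew), equal totals, a trended loess with a span of 0.3, no filter, a replicate block, other CpG windows and cuts, and leaving out each library. Other tools were Python 3.11.15, numpy 2.4.6, pandas 2.3.3, scipy 1.17.1, pysam 0.24.0, samtools 1.23.1 and matplotlib 3.10.9.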

Additional observations from a re-analysis of the deposited data

How the results depend on the processing

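The number of promoter peaks meeting the rule was 753 with TMM scaling, 1309 with equal totals and 1339 after the trended loess, sets that hold 491, 491 and 449 of the 491 members, and ranged from 351 to 701 when libraries were left out. The CpG-poor share was 41.5% with the limit at 0.6, 29.5% with TMM scaling, 24.7% with equal totals, 14.0% after the trended loess, 27.4% with a G1 mean of at least 50 and 42.1% with starts of every transcript of coding genes. Over all peaks tested, equal totals gave 18113 lower and 6347 higher. Other promoter peaks of member genes numbered 25, 40 and 44 as lower with TMM scaling, equal totals and the trended loess, and 1 to 12 when a library was left out, and 8 as higher after the trended loess. Their median turned to -0.050, -0.25 and -0.26 with TMM scaling, equal totals and the trended loess, after which the other peaks of ST3GAL1, IFRD1, SMARCA2, FAXDC2 and GNAS stood at -0.15, -0.26, -0.61, -0.41 and -0.30. The cause was not tested. With the replicate block 10063 peaks were lower and 10881 higher, and 7 and 32 other promoter peaks. Libraries with the same replicate number did not deviate together (r = 0.0059, -0.0101 and 0.0284), so the block was not taken as a pairing. The count model on recovered reads was not run. With 3 libraries per phase and values rounded to 0.1, changes at peaks with few reads were not resolved.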
